A study of Sus scrofa with 13 samples.

Results

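The genes described here are named for proteins of the cytosolic ribosome. They were taken from the pig gene count tables by name: every gene whose symbol starts with RPL or RPS and a digit, together with RPSA and FAU, and without the RPS6K kinases. This gave 61 gene identifiers out of 25322. Of these, 30 are identifiers for proteins of the large (60S) subunit and 24 for proteins of the small (40S) subunit, with 53 distinct symbols together. They do not cover the whole ribosome: RPL7, RPL10, RPS2 and RPS6, for example, matched no identifier. The counts and shares below hold for the listed genes only. A further 6 are paralogues of ribosomal proteins (RPL10L, RPL22L1, RPL26L1, RPL36AL, RPL7L1 and RPS27L), and 1, RPS19BP1, is a nucleolar protein that binds RPS19 and is no part of the ribosome. RPS16 was listed under 2 identifiers, ENSSSCG00000010712 on chromosome 14 and ENSSSCG00000020817 on chromosome 6, and both were kept. The acidic stalk genes RPLP1 and RPLP2 also make ribosomal proteins but fall outside the name rule, so they are given separately.

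A ribosome joins a small subunit, which reads the messenger RNA, to a large subunit, which makes the peptide bond. Each subunit is built in the nucleolus from ribosomal RNA and one copy of most of its proteins, so the cell needs its ribosomal proteins in nearly equal numbers. Their messenger RNAs carry a terminal oligopyrimidine (TOP) motif at the 5′ end, through which the mTORC1 pathway and LARP1 set how much of each message is translated. In skeletal muscle the number of ribosomes is one of the limits on protein synthesis and therefore on fibre growth.

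The RNA came from the longissimus lumborum, the main muscle of the loin, of 13 female pigs of 2 sire-line breeds, all 6 months old. The 4 groups were Hampshire pigs with low weight of loin (3 pigs, numbers 1, 2 and 3), Hampshire pigs with high weight of loin (3 pigs, numbers 8, 9 and 10), Pietrain pigs with low weight of loin (3 pigs, numbers 3, 5 and 8) and Pietrain pigs with high weight of loin (4 pigs, numbers 1, 2, 6 and 7). No pig was treated, and all were kept and fed alike. Each was an unrelated animal chosen after dissection from a larger population for an extreme loin weight within its breed, so the groups stand for the ends of each breed's range. A pig number only names an animal. The libraries held 11312755 to 20134612 counted reads per pig, and no 2 pigs of a group agreed within sampling noise (chi-square per degree of freedom over genes 24 to 142). The muscle fibre markers made up 112947 to 280145 counts per 1000000 reads (CPM) in each pig, and reads of mitochondrially encoded genes took 12.1 to 20.7% of the total. Each breed was deposited in a table of its own, so a difference between breeds and a difference between the handling of the tables cannot be told apart.

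The 61 genes together took a larger share of the counted reads in the high loin weight group of Hampshire than in any other group. In Hampshire the share was 3.16, 3.25 and 2.84% at high loin weight and 1.84, 1.74 and 1.77% at low loin weight. In Pietrain it was 2.04, 2.16 and 1.97% at low loin weight and 2.09, 1.76, 2.22 and 1.92% at high loin weight. The 3 Hampshire pigs with high loin weight lay above all other 10 pigs, and the 2 Pietrain groups overlapped. The group means were 3.08% ± 0.216 (SD, n = 3), 1.78% ± 0.0505 (SD, n = 3), 2.06% ± 0.0927 (SD, n = 3) and 2.00% ± 0.201 (SD, n = 4) for Hampshire high, Hampshire low, Pietrain low and Pietrain high pigs. Mitochondrially encoded genes took 12.9 to 17.5% of the reads in the Hampshire high group and 19.2 to 20.7% in the Hampshire low group, and without them in the total the means were 3.61, 2.22, 2.48 and 2.34% in the same order. In whole muscle, more cells of one type and more of these messages per cell cannot be told apart.

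**Figure D1:**
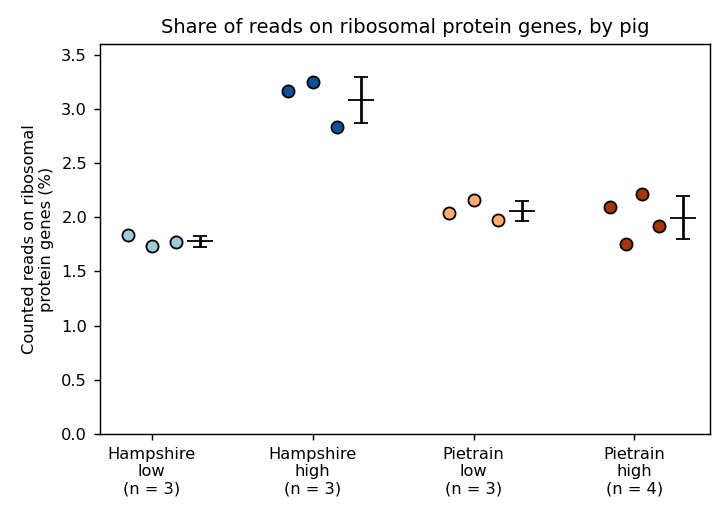
Share of counted reads on the 61 genes of the set (y axis, percent) in each pig, by group (x axis). The 61 are 54 ribosomal protein identifiers, 6 paralogues and RPS19BP1. Points are pigs, and the bar beside them is the group mean with its SD. The Hampshire pigs with high loin weight sit between 2.84 and 3.25%, and the other 10 pigs between 1.74 and 2.22%.

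Levels below are CPM normalized by the trimmed mean of M-values (TMM) over all 13 pigs. Fold changes are on the log2 scale, and a gene was called where its adjusted p was under 0.05 and its fold change at least 1.2. For the difference between breeds in the loin weight effect, the call used the adjusted p only. In all, 60 of the 61 genes had enough counts to be tested in every comparison. RPL10L, which replaces RPL10 in the male germ line, had at most 5 counts in any pig and was not tested.

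Gene by gene, the pattern of the summed share was repeated in most genes. Of the 60 genes, 53 had their highest group mean in the Hampshire high group and 7 in the Pietrain low group. The lowest mean was in Hampshire pigs with low loin weight for 37 genes, in Pietrain pigs with high loin weight for 14 and in Pietrain pigs with low loin weight for 9. The commonest order, in 29 genes, ran from Hampshire high through Pietrain low and Pietrain high to Hampshire low. In 40 genes every Hampshire pig with high loin weight was above all 10 other pigs, which was so for 14.4% of all 12831 genes tested. Within that group pig 9 stood out: it was the highest of the 13 pigs for 48 genes. Its TMM factor was also the lowest of the 13, 0.814 against 0.942 in pig 8 and 0.981 in pig 10, and a lower factor raises every CPM. As a share of counted reads pig 9 was close to pig 8 (3.25 and 3.16%), so its lead in CPM depends in part on this scaling. The median gene lay 0.41 to 0.87 above its mean over the 13 pigs (log2) in the Hampshire high group. It lay between -0.43 and -0.09 in Hampshire pigs with low loin weight, between -0.19 and 0.16 in Pietrain pigs with low loin weight and between -0.43 and -0.11 in those with high loin weight.

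**Figure D2:**
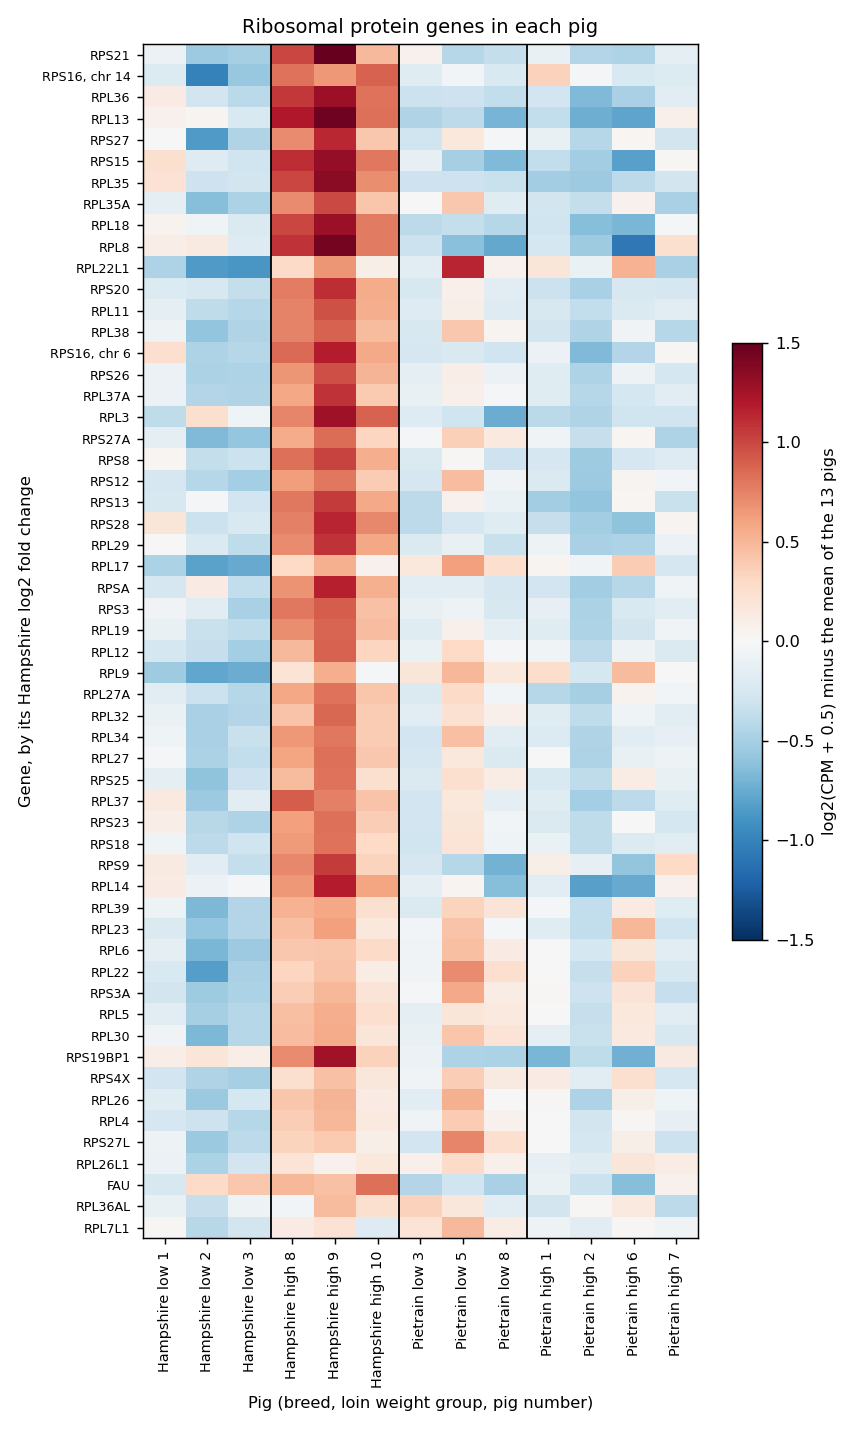
Level of 56 of the 60 tested genes (rows, ordered by their Hampshire fold change) in each of the 13 pigs (columns, grouped by breed and loin weight), as log2(CPM + 0.5) minus the gene's mean over all pigs. Red is above and blue below that mean. The 3 Hampshire high columns are red for almost every gene and deepest in pig 9, while Hampshire low pigs 2 and 3 are mostly blue.

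The first comparison asked which genes differed with loin weight within Hampshire. In these pigs, 55 of the 60 genes were called higher at high loin weight and 0 lower by edgeR's quasi-likelihood test. Of all 12228 genes tested in this comparison, 12.0% were called higher and 14.6% lower, 26.6% in all. The median log2 fold change over the 60 genes was 0.95, a level 1.93 times as high, against 0.03 over all genes, and the genes ranged from 0.27 to 1.42. All 30 listed large subunit genes were called higher (median 0.94), as were 23 of the 24 small subunit identifiers (median 1.00). Of the 5 tested paralogues, 2 were called higher (median 0.43). The groups did not overlap in 59 of the 60 genes, each higher in the high group. Of all genes, 45.9% did not overlap (22.4% higher and 23.5% lower in the high group). An exact two-sided permutation test of 3 pigs against 3 cannot give a p below 0.1, and 59 of the 60 genes reached that value.

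Among large subunit genes, RPL13 had the smallest adjusted p. It lies at chr6:517793-520205 (Sscrofa10.2). RPL13 was at 737, 882 and 571 CPM in the Hampshire pigs with high loin weight and at 337, 330.2 and 274 CPM in those with low loin weight. The highest low pig was thus well below the lowest high pig, and the log2 fold change was 1.21 ± 0.20 (SE), adjusted p = 0.00553. RPL36, at chr2:73808882-73810492, was at 479, 562 and 406 CPM against 251, 188 and 174 CPM, a log2 fold change of 1.23 ± 0.21 (SE), adjusted p = 0.00575. RPL18 rose by 1.11 ± 0.19 (SE), adjusted p = 0.00575, on the log2 scale. RPL11, which with RPL5 and the 5S ribosomal RNA forms a particle that can bind MDM2 when it is in surplus, lies at chr6:75499813-75504144. RPL11 stood at 679, 785 and 592 CPM against 369, 310.3 and 301 CPM, and its log2 fold change was 1.06 ± 0.18 (SE), adjusted p = 0.00601. In each of these 4 genes pig 9 was the highest Hampshire pig and pig 10 the lowest of the 3 with high loin weight. RPL4, the member with the most reads (a number that also depends on transcript length), had the smallest fold change of the 30 large subunit genes: it was at 1438, 1576 and 1233 CPM against 942, 898 and 828 CPM, a log2 fold change of 0.66 ± 0.17 (SE), adjusted p = 0.0249.

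Small subunit genes moved in the same way. RPS21, at chr17:69172955-69173861, was at 177, 252 and 123 CPM in the high pigs and 82.5, 60.2 and 62.2 CPM in the low pigs. Pig 9 was again the highest, far above pig 10, and all 3 were above the low pigs. RPS21 had the largest fold change of all members, 1.42 ± 0.26 (SE), adjusted p = 0.00771. For RPS16 the identifier on chromosome 14, at chr14:143655389-143658147, had few reads and was at 33.7, 30.2 and 35.5 CPM against 16.4, 9.14 and 12.7 CPM, with a log2 fold change of 1.38 ± 0.23 (SE), adjusted p = 0.00569. The identifier on chromosome 6, at chr6:43871538-43874349, held most of the RPS16 reads. It was at 983, 1227 and 804 CPM against 645, 393 and 405 CPM, and its log2 fold change was 1.05 ± 0.25 (SE), adjusted p = 0.0185. Both identifiers rose, and in neither did the groups overlap. RPS3A had a smaller fold change: it was at 977, 1076 and 868 CPM against 627, 526 and 544 CPM, a log2 fold change of 0.78 ± 0.17 (SE), adjusted p = 0.0143.

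The genes that were not called in Hampshire were FAU, RPS19BP1 and 3 paralogues. FAU encodes the small subunit protein eS30 fused to a ubiquitin-like protein. Its identifier carried the name of another gene, SYVN1, in the deposited table, so its reads may not be those of FAU alone. FAU had 33.6, 32.5 and 42.3 CPM in the high pigs and 20.1, 29.1 and 31.5 CPM in the low pigs, with a log2 fold change of 0.43 ± 0.21 (SE), adjusted p = 0.148. RPS19BP1 was at 10.1, 15 and 7.74 CPM against 6.43, 6.85 and 6.45 CPM, 0.72 ± 0.25 (SE), adjusted p = 0.0621. RPL7L1, which acts in the assembly of the large subunit, was the only gene whose Hampshire groups overlapped. Its values were 70.6, 75.8 and 56.6 CPM in the high and 65.6, 48.5 and 53.7 CPM in the low pigs, 0.27 ± 0.18 (SE), adjusted p = 0.296. RPL26L1 (0.43 ± 0.18 (SE), adjusted p = 0.0978) and RPL36AL (0.43 ± 0.21 (SE), adjusted p = 0.15) were alike in size of change, and RPL36AL also shared its identifier with another name, MGAT2.

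The Hampshire call count rested in part on single pigs, as did the calls over all genes. Without low pig 2 it was 36 and without low pig 3 it was 21, where 17.4% and 9.8% of all genes were called. The median fold change of the 60 genes stayed at 0.90 and 0.88, and all 60 were above 0. Without high pig 8 or 9 the count was 49 or 43, with 24.2% or 16.6% of all genes called. Ribosomal protein genes are short, with a median span of 4039 bases against 18949 for all genes tested, and over all genes with a known span the Hampshire fold change fell with span (Spearman correlation -0.39 over 9945 genes of the same 6 libraries, a description only). With that trend removed, 37 of the 60 genes were called, at a median of 0.59, and 23.4% of all genes were called in either direction. RPL4, RPL6, RPL26, RPL39, RPS3A, RPS4X, RPS9, RPSA and RPS27L were then among the genes that were no longer called, with log2 values of 0.35 to 0.56.

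**Figure D3:**
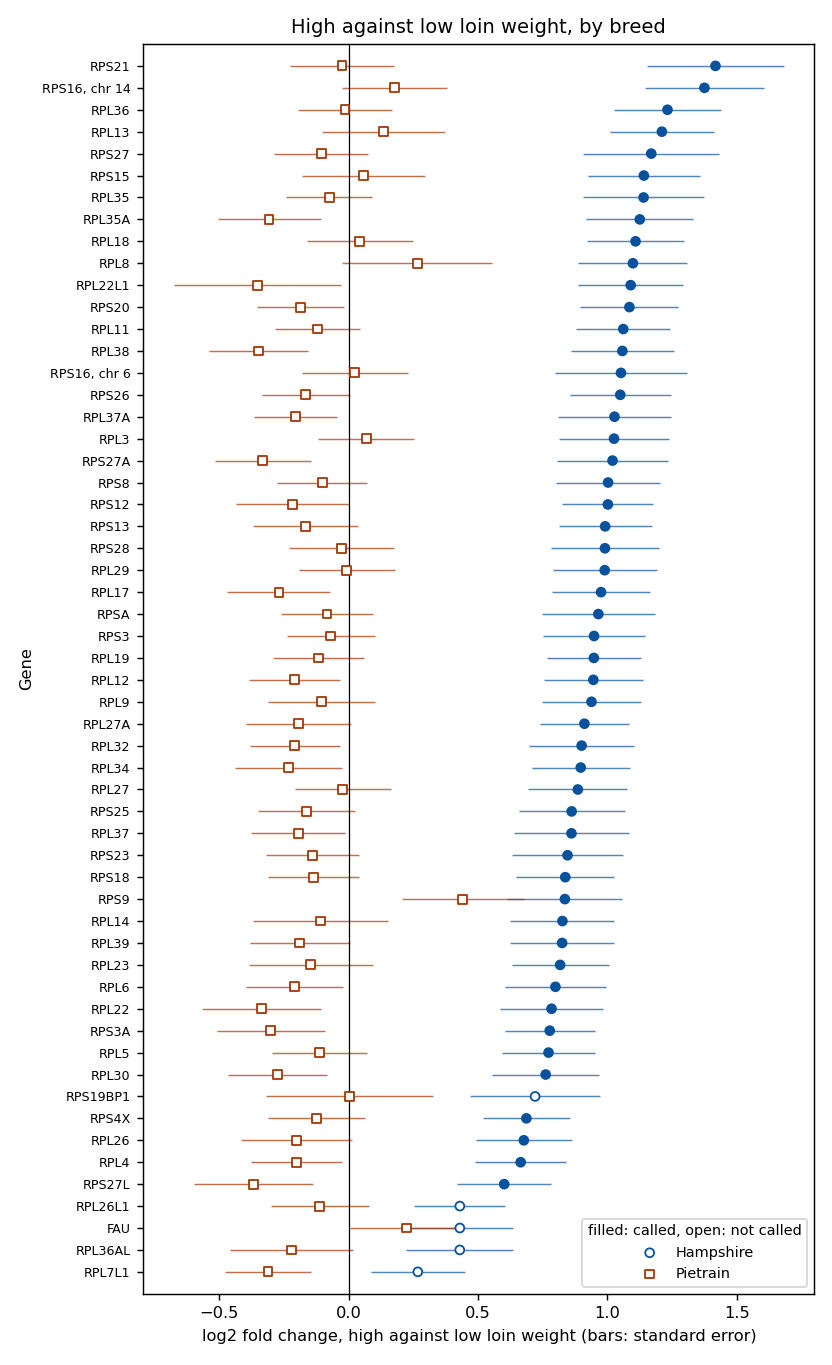
Log2 fold change of high against low loin weight (x axis, bars are standard errors) for 56 of the 60 tested genes (y axis, ordered by the Hampshire value) in Hampshire (circles, 3 pigs against 3) and Pietrain (squares, 4 pigs against 3). Filled symbols are called. The Hampshire values run from 0.27 to 1.42 and the Pietrain values from -0.37 to 0.44.

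The same edgeR test in Pietrain called 0 of the 60 genes. It also called 0 of all 12065 genes tested (0% in either direction), so the members do not stand out by this count. At an unadjusted p under 0.05 it held 0 of the 60 genes and 398, or 3.30%, of all genes, and DESeq2 also called 0 of the members and 1 gene in all. The median log2 fold change was -0.13, with 12 genes above 0 and 48 below it, and the values ran from -0.37 to 0.44. The groups did not overlap in 3 genes, all lower at high loin weight, against 4.59% of all genes (2.51% lower and 2.08% higher). The smallest exact permutation p that 4 pigs against 3 can give is 0.0571, and these 3 genes had it. The smallest adjusted p of a member was 0.939. Leaving out 1 pig kept the count at 0 but moved the median, which was -0.05 without high pig 2, -0.06 without low pig 5 and -0.18 without low pig 3. The number of genes above 0 went from 4 without high pig 7 to 22 without high pig 2.

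Of single genes, RPS9 had the largest positive value in Pietrain. RPS9 was at 251, 217, 157 and 290.2 CPM in pigs with high loin weight and 199, 175 and 144 CPM in pigs with low loin weight. High pig 6 lay within the low group, and the log2 fold change was 0.44 ± 0.24 (SE), adjusted p = 0.939. RPL8, whose protein lies next to the centre where peptide bonds form, was at 455, 376, 260.0 and 642 CPM against 436, 353 and 319.6 CPM. High pig 7 was the highest Pietrain pig and high pig 6 the lowest. The log2 fold change of RPL8 was 0.26 ± 0.29 (SE), adjusted p = 0.939, and it was -0.0018 without pig 7. FAU gave 0.22 ± 0.22 (SE), adjusted p = 0.939. On the other side, RPL38 was at 173, 153, 201 and 156 CPM against 177, 278 and 215 CPM, a log2 fold change of -0.35 ± 0.19 (SE), adjusted p = 0.939. RPS27A, whose protein is made as a fusion with ubiquitin, was at 447, 365, 472 and 335 CPM against 457, 594 and 513 CPM, -0.33 ± 0.19 (SE), adjusted p = 0.939. RPL7L1 was at 61.7, 58.2, 65.8 and 62.6 CPM against 75.3, 91.5 and 70.3 CPM, a log2 fold change of -0.31 ± 0.16 (SE), adjusted p = 0.939. In RPL38 and RPS27A low pig 5 was the highest Pietrain pig. RPL7L1 was one of the 3 genes without overlap between the groups.

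The loin weight effect itself was then compared between the breeds in 1 model of all 13 pigs, as the Hampshire minus the Pietrain log2 fold change. In 43 of the 60 genes this difference was called above 0, and in 0 it was called below 0. Over all 12831 genes this difference was called in 5.90%, above 0 in 1.68% and below 0 in 4.22%. The median difference over the 60 genes was 1.10 on the log2 scale, against -0.02 over all genes. By subunit, 24 of 30 large subunit genes and 19 of 24 small subunit genes passed, and 0 of the 5 tested paralogues did. Among these paralogues RPL22L1 had the largest difference of all 60 genes, 1.49 ± 0.45 (SE), adjusted p = 0.0656. RPS20, at chr4:82679936-82681181, had the smallest adjusted p, with a difference of 1.31 ± 0.24 (SE), adjusted p = 0.00796. In Hampshire RPS20 was at 929, 1171 and 799 CPM against 474, 462 and 425 CPM. In Pietrain it was at 436, 389, 459.8 and 456 CPM against 460.4, 574 and 488 CPM, so neither Pietrain group came near the Hampshire high pigs. RPL11 differed by 1.23 ± 0.23 (SE), adjusted p = 0.00894, and its Pietrain values were 344, 315, 348 and 359 CPM at high and 356, 430.5 and 356 CPM at low loin weight. RPL38, known for its part in the translation of Hox messages in the mouse embryo, differed by 1.45 ± 0.28 (SE), adjusted p = 0.011. Its Hampshire values were 349, 387 and 290.5 CPM at high and 199, 139 and 153 CPM at low loin weight. RPS26 differed by 1.26 ± 0.25 (SE), adjusted p = 0.0112, with 458, 566 and 413 CPM against 272, 209 and 209.6 CPM in Hampshire and 255, 210.2, 275 and 242 CPM against 263, 311 and 273 CPM in Pietrain. In all 4 genes each Hampshire pig with high loin weight was above the other 10 pigs.

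The count of 43 was sensitive to single pigs and to the filter. Without Hampshire low pig 2 or 3 it was 13 or 6, where 3.7 or 2.86% of all genes were called in either direction. Without Hampshire high pig 8 or 9 it was 21 or 9, with 6.21 or 3.19% of all genes. Without Pietrain low pig 5 or 8 it was 12 or 18, with 3.69 or 3.75% of all genes. Without Pietrain high pig 1 or 2 it was 20 or 18, with 4.06 or 4.47% of all genes. It was 24 with no filter on low counts, with 3.25% of all genes. Over the 77.7% of genes with a known span, the difference fell with span (Spearman correlation -0.34, a description only). With that trend removed, a setting chosen after the data were seen, 7 of the 60 genes passed, 6 of them among the 43, against 4.78% of all genes, and the median difference was 0.76. RPS20, RPL11 and RPL38 were among the 7, and RPS26 was not. All 60 genes kept a difference above 0 in each of these fits. Among cell type markers, the difference was called above 0 in 2 of 7 smooth muscle and pericyte markers and below 0 in 1 of 8 muscle fibre markers. Of all genes, 1.68% were called above 0 and 4.22% below 0. The part of the marked cells in the result was not tested.

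The breeds were next set against each other at the same loin weight. At low loin weight, 0 genes were higher in Hampshire and 7 were lower: RPL17, RPL9, RPL22L1, RPL22, RPS3A, RPL6 and RPS4X. Over all 12831 genes, 7.84% were called higher and 10.1% lower (17.9% together), so a share of 7 in 60 is near the background. The median over the 60 genes was -0.26, with 18 above 0. RPL17, at chr1:108447524-108451374, was at 304, 242 and 249.6 CPM in Hampshire and 470.5, 646 and 501 CPM in Pietrain, a log2 fold change of -1.03 ± 0.21 (SE), adjusted p = 0.0122. RPL9, at chr8:32308212-32314218, was at 279, 235 and 242 CPM against 457, 573 and 451 CPM, -0.97 ± 0.21 (SE), adjusted p = 0.0151. In both genes every Hampshire pig was below every Pietrain pig. The remaining values were -1.20 ± 0.33 (SE), adjusted p = 0.0285 for RPL22L1, -0.83 ± 0.24 (SE), adjusted p = 0.0315 for RPL22, -0.67 ± 0.21 (SE), adjusted p = 0.0388 for RPS3A, -0.63 ± 0.20 (SE), adjusted p = 0.0417 for RPL6 and -0.57 ± 0.18 (SE), adjusted p = 0.0459 for RPS4X. The groups did not overlap in 9 genes that were higher and 16 that were lower in Hampshire, against 42.8% of all genes (21.4% in each direction). The count of 7 went to 0 without Hampshire low pig 2, Pietrain low pig 5 or Pietrain low pig 8. In these fits the calls over all genes also fell, to 0.828, 1.23 and 0.842% in the same order. The count was 1 without Hampshire low pig 3, with 3.78% of all genes called. Without Hampshire high pig 8, Pietrain high pig 1 or Pietrain high pig 2, none of which is in a low group, it was 4. Of all genes, 15.2, 14.9 and 14.6% were then called. The median went from -0.37 without Hampshire low pig 1 to -0.13 without Hampshire low pig 2, and it was -0.17 without Hampshire low pig 3 and -0.15 without Pietrain low pig 5. The fold change fell with span here too (Spearman correlation -0.21 over all genes with a span, a description only). With the trend on span removed, again a setting chosen after the data were seen, 23 genes were lower and 0 higher, against 23.1% of all genes in either direction. These 23 held all 7 genes, and the median was -0.47. Of the cell type markers, 6 of 9 macrophage, 3 of 4 satellite cell and 1 of 4 nerve markers were higher in Hampshire and 1 of 8 muscle fibre markers was lower, with 0 called in the other lists, and their part in the result was not tested.

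At high loin weight, 47 of the 60 genes were higher in Hampshire and 0 lower. The background was high as well, with 22.6% of the 12831 genes called higher and 24.2% lower (46.8% together). The median log2 fold change was 0.87, against 0.02 over all genes, and the members ran from 0.12 to 1.60. Here 24 of 30 large subunit genes and 22 of 24 small subunit genes passed, with 0 of 5 paralogues. In 49 genes all Hampshire pigs were above all Pietrain pigs, and in 0 all were below, against 24% and 24.6% of all genes (48.7% together). RPL36 was at 479, 562 and 406 CPM in Hampshire and 189, 145, 164 and 206 CPM in Pietrain, a log2 fold change of 1.45 ± 0.18 (SE), adjusted p = 4.48e-05. The lowest Hampshire pig was far above the highest Pietrain pig. RPL35 was at 727, 926 and 588 CPM against 252, 247, 275 and 299 CPM, 1.48 ± 0.18 (SE), adjusted p = 4.69e-05. RPL18 was at 640.0, 785 and 549 CPM against 259.9, 205, 198 and 313 CPM, 1.43 ± 0.19 (SE), adjusted p = 6.3e-05. The groups were apart in RPL35 and RPL18 too. None of the 7 genes that were lower in Hampshire at low loin weight was called here: RPL17 gave 0.26 ± 0.19 (SE), adjusted p = 0.272 and RPL9 gave 0.12 ± 0.20 (SE), adjusted p = 0.655. RPL9 was at 468, 591 and 397 CPM in Hampshire and 486, 338, 560.5 and 407 CPM in Pietrain, and these values overlapped.

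In the high loin weight comparison, fold changes also varied with gene span, and some markers of other cells differed between the breeds. Over all genes with a span, the fold change fell with span (Spearman correlation -0.39, a description only). With that trend removed, after the data had been seen, 26 genes were higher and 0 lower, against 48.4% of all genes in either direction. Of these 26, 25 were among the 47, and the median was 0.34 with 49 genes above 0. RPL36, RPL35 and RPL18 were still called, at 0.82, 1.01 and 0.91 (log2). All 9 macrophage markers were higher in Hampshire (median log2 fold change 1.99), and their sum was 160.3 to 232 CPM against 21.3 to 61.7 CPM in Pietrain. Fibroblast and matrix markers were higher in 6 of 10 (median 1.17), with sums of 2035 to 5416 CPM against 922 to 2512 CPM. Smooth muscle and pericyte markers were higher in 4 of 7 (median 1.10), with sums of 266 to 410 CPM against 139 to 223 CPM. Of the other lists, 4 of 7 lymphocyte, 3 of 4 satellite cell and 2 of 5 endothelial markers were higher, 0 adipocyte, blood or nerve markers were called, and 3 of 8 muscle fibre markers were higher and 1 lower. Of all genes, 22.6% were called higher and 24.2% lower. The part of these cells in the result was not tested.

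**Figure D4:**
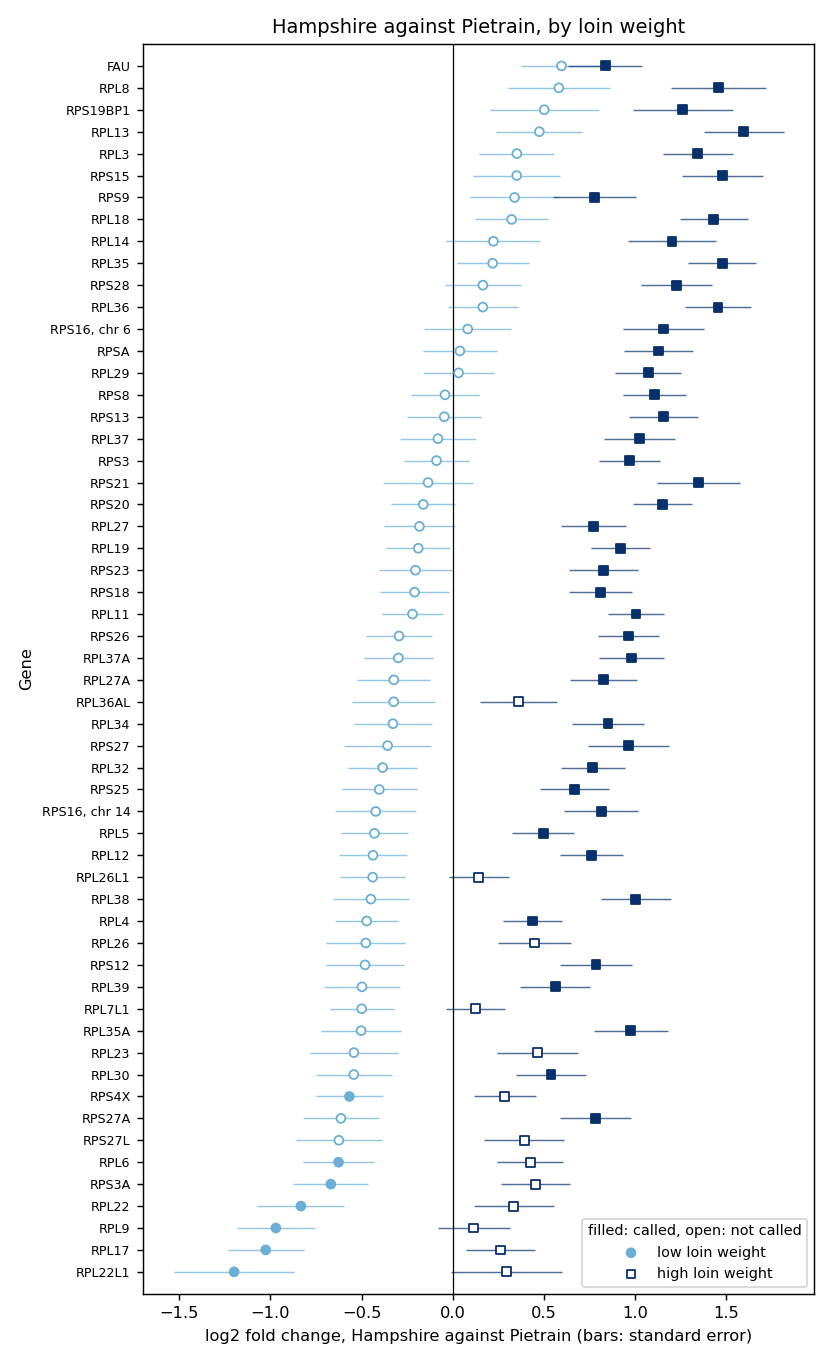
Log2 fold change of Hampshire against Pietrain (x axis, bars are standard errors) for 56 of the 60 tested genes (y axis, ordered by the value at low loin weight), at low (circles) and high (squares) loin weight. Filled symbols are called. At low loin weight the values lie on both sides of 0, with a median of -0.26 over all 60 genes, and at high loin weight all are above 0, with a median of 0.87 over all 60 (49 of the 60 with the trend on gene span removed).

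The plot of single genes by pig shows 4 kinds of profile. RPS21, RPL13, RPL11 and RPS20 have 1 group above 3 others, and RPL9 has 1 group below 3 others. RPL8 varies widely within Pietrain. RPL22L1 and RPL7L1 are paralogues with less regular differences, which in RPL7L1 were also smaller. These 8 genes were picked for the plot after their values were seen.

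**Figure D5:**
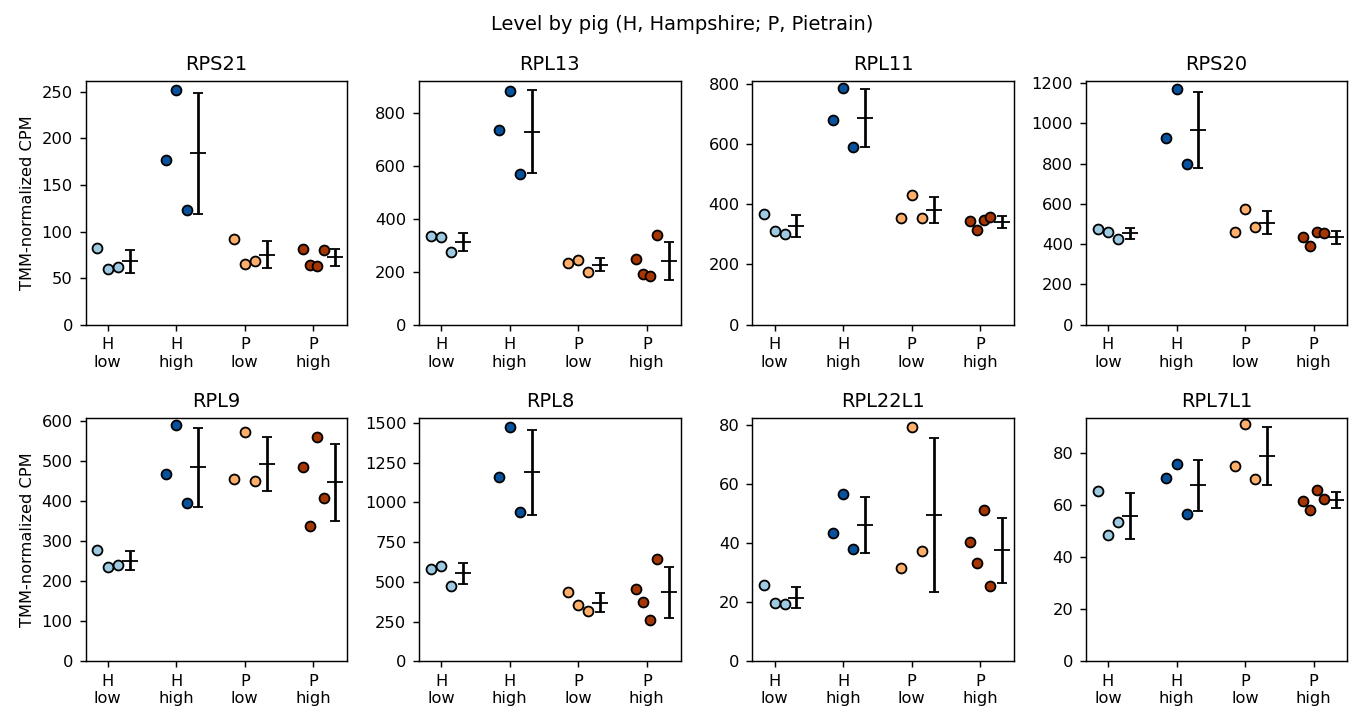
TMM-normalized CPM (y axis, from 0) of 8 genes in each pig by group (x axis; H, Hampshire; P, Pietrain; low and high, loin weight). Points are pigs and the bar beside them is the group mean with its SD. In RPS21, RPL13, RPL11 and RPS20 the 3 Hampshire high pigs lie above the other 10, and in RPL9 the 3 Hampshire low pigs, at 279, 235 and 242 CPM, lie below the other 10.

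The paralogues are read best beside their parents. RPL22L1, at chr13:118437979-118499704, is a copy of RPL22, and in mice RPL22 is known to hold down the expression of RPL22L1. RPL22L1 was at 25.7, 19.6 and 19.3 CPM in Hampshire low, 43.6, 56.7 and 38.1 CPM in Hampshire high, 31.7, 79.4 and 37.3 CPM in Pietrain low and 40.5, 33.3, 51.3 and 25.4 CPM in Pietrain high pigs. RPL22 was at 272, 179.9 and 227 CPM, 399.7, 430.2 and 346 CPM, 307, 522 and 380.2 CPM and 319, 251, 405 and 269 CPM in the same order. Both were highest in Pietrain low pig 5 and both rose with loin weight in Hampshire, by 1.09 ± 0.20 (SE), adjusted p = 0.0075 for RPL22L1 and by 0.78 ± 0.20 (SE), adjusted p = 0.0216 for RPL22. RPS27L, a p53-responsive copy of RPS27, also rose in Hampshire (0.60 ± 0.18 (SE), adjusted p = 0.0398), with RPS27 at 1.17 ± 0.26 (SE), adjusted p = 0.0143. RPL26L1 was not called while its parent RPL26 was (0.68 ± 0.19 (SE), adjusted p = 0.0288), and the difference between the 2 genes was not tested. RPL3, RPL39 and RPS4X, whose own paralogues were not analysed here, rose in Hampshire by 1.03 ± 0.21 (SE), 0.83 ± 0.20 (SE) and 0.69 ± 0.17 (SE).

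Some members have work outside the ribosome. RPSA, also known as a laminin receptor, was at 511, 717 and 463 CPM in Hampshire high and 269, 348 and 247 CPM in Hampshire low pigs, a log2 fold change of 0.97 ± 0.22 (SE), adjusted p = 0.0149. RPS27A, a source of ubiquitin, was at 680.3, 829.1 and 577 CPM against 420.4, 292 and 310.0 CPM, 1.02 ± 0.22 (SE), adjusted p = 0.0117. Both rose in Hampshire and neither passed in Pietrain. The members with the fewest reads among those tested were RPS19BP1, RPL36AL and RPL26L1, and none of these passed in Hampshire.

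Not every gene followed the common profile within a pig. The deviation of the 60 genes from their own means was spread most widely in Pietrain low pig 5 (interquartile range 0.62 on the log2 scale), Hampshire high pig 9 (0.57) and Pietrain high pig 6 (0.53). In Pietrain low pig 5 the genes farthest below the pig's median included RPL8 and RPS15, and those farthest above it were RPL22L1, RPS27L and RPL22. In Pietrain high pig 6 RPL8, RPS15 and RPL13 were lowest and RPL22L1, RPL23 and RPL9 highest. Hampshire high pig 9 had RPS21, RPL13 and RPL8 at its upper end. After the median of each pig was taken out, RPL8 had the largest SD over the 13 pigs (0.51) and RPS26 the smallest (0.0637). These genes were singled out after their values were seen, and the values are a description.

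The ribosomal proteins outside the name rule were RPLP1 and RPLP2, which form the stalk that recruits elongation factors. In Hampshire RPLP2 rose by 1.26 ± 0.19 (SE), adjusted p = 0.00429, and RPLP1 by 0.73 ± 0.23 (SE), adjusted p = 0.0439. Neither passed in Pietrain, where the values were 0.18 ± 0.25 (SE) and 0.04 ± 0.21 (SE).

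Other genes of the translation machinery moved less uniformly. The counts below stand beside 12.0% of all genes called higher and 14.6% called lower in Hampshire, 26.6% in all. Of 20 elongation factors and other TOP partners tested in Hampshire, 10 rose and 0 fell (median 0.58). They included EEF1D (1.07 ± 0.21 (SE), adjusted p = 0.00934) and EEF1G (0.91 ± 0.20 (SE), adjusted p = 0.014), while EEF1A1 gave 0.39 ± 0.37 (SE), adjusted p = 0.453 and EEF2 gave 0.50 ± 0.18 (SE), adjusted p = 0.0645. Of 24 initiation factors, 5 rose and 6 fell (median -0.07). Among them EIF3G (0.91 ± 0.18 (SE), adjusted p = 0.00837) and EIF6, which keeps free 60S subunits from joining (0.72 ± 0.15 (SE), adjusted p = 0.0104), rose, and EIF3A (-0.91 ± 0.17 (SE), adjusted p = 0.00732) and EIF4G2 (-1.04 ± 0.20 (SE), adjusted p = 0.00815) fell. Of 37 genes of ribosome assembly, 4 rose and 1 fell (median 0.13). The nucleolar protein NCL (1.05 ± 0.17 (SE), adjusted p = 0.00454) and NHP2, which belongs to the particles that modify ribosomal RNA (0.95 ± 0.21 (SE), adjusted p = 0.0134), were among those that rose, and MDN1, a very large protein that remodels the pre-60S particle, fell (-1.41 ± 0.32 (SE), adjusted p = 0.0147). Of 12 subunits of RNA polymerase I, which transcribes ribosomal RNA, 2 rose and 0 fell: POLR1D (0.64 ± 0.17 (SE), adjusted p = 0.0286) and ZNRD1 (0.80 ± 0.25 (SE), adjusted p = 0.0469). For ribosome assembly and RNA polymerase I the share called in both directions together was below that of all genes. With the trend on span removed, RPLP1, EIF6, POLR1D and ZNRD1 were not called. Ribosomal RNA itself was not analysed here.

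Of 14 genes that signal growth to ribosomes, 3 rose and 5 fell in Hampshire, against 12.0% and 14.6% of all genes. MLST8, a subunit of the mTOR complexes, rose (1.33 ± 0.21 (SE), adjusted p = 0.00442), as did EIF4EBP1, an inhibitor of cap-dependent initiation (1.32 ± 0.21 (SE), adjusted p = 0.00446). LARP1, which binds TOP messages and holds them from translation, fell (-1.86 ± 0.19 (SE), adjusted p = 0.00135), and its mean was 9.25 CPM in Hampshire high against 33.4 CPM in Hampshire low pigs. EIF4EBP2 also fell (-1.40 ± 0.27 (SE), adjusted p = 0.00867). In Pietrain 0 genes of these 5 lists passed, as did 0 of all 12065 genes. The loin weight effect differed between breeds for EIF4EBP1 (difference 1.53 ± 0.28 (SE), adjusted p = 0.00793), LARP1 (-2.0 ± 0.31 (SE), adjusted p = 0.00407) and EIF4EBP2 (-1.76 ± 0.41 (SE), adjusted p = 0.0228). For MLST8 the difference did not pass (1.23 ± 0.36 (SE), adjusted p = 0.0591).

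Some markers of other cell types in the muscle were also called in the Hampshire comparison. Of all genes, 12.0% were called higher and 14.6% lower in this comparison. Fibroblast and matrix markers summed to 813 to 1811 CPM in the low and 2035 to 5416 CPM in the high pigs, with 3 of 10 higher. Macrophage markers summed to 53.9 to 133 CPM and 160.3 to 232 CPM, with 3 of 9 higher. Smooth muscle and pericyte markers went from 195 to 258 CPM up to 266 to 410 CPM, with 2 of 7 higher. Adipocyte (1 of 3) and endothelial markers (1 of 5) had 1 gene higher each. Lymphocyte (0 of 7), blood (0 of 2), nerve (0 of 3) and satellite cell markers (0 of 4) had none. Of 8 muscle fibre markers, 2 were higher and 2 lower, and none of the markers matched was at 0 in all pigs. The part of these cells in the ribosomal protein result was not tested. The genes of the set with known coordinates lie on 15 chromosomes and 2 unplaced scaffolds, with the most, 9, on chromosome 6.

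Ribosomal protein genes have many near-identical processed copies in mammalian genomes. How reads that fit several copies were counted is not given in the sources used here, so the level of any single member is uncertain to that extent.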

How the data were processed

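The authors sequenced TruSeq RNA v2 libraries of muscle RNA as 101-base single reads. The submitters' notes name FastQC, STAR, RSEM and DESeq2 and the build Sscrofa10.2; versions and the annotation release are not given in the sources used here. The deposited values are whole-number read counts per gene, not normalized, in 1 table per breed. Symbols and coordinates came from the authors' result tables, whose DESeq2 fold changes and p-values were not used, and from a reference name list. Counts were tested with edgeR 4.0.16 (R 4.3.3; filterByExpr, TMM, quasi-likelihood test, two-sided, Benjamini-Hochberg over all genes tested), within each breed, and over 13 pigs in 4 groups for the comparisons between breeds. The scripts were tested on simulated data. Alternatives were DESeq2 1.42.0, other scalings and filters, removing a trend on gene span and leaving out each pig. The members, gene lists and rules were chosen with earlier results of these data known. Some genes that were tested and counted are not reported singly here. The others were named by smallest adjusted p (6 per direction), read number, paralogy or other roles. The libraries do not keep strand, so overlapping genes cannot be told apart.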

Additional observations from a re-analysis of the deposited data

Results flagged for a closer look

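The loin weight effect differed between the breeds, by the test of the difference itself, in 43 of the 60 genes. Over all genes it differed in 5.90%, with 1.68% in the same direction. The count fell to as few as 6 when 1 pig was left out. RPL11 differed by 1.23, RPL38 by 1.45, RPS20 by 1.31 and RPS26 by 1.26 on the log2 scale, each larger in Hampshire. With the trend on span removed, 7 genes passed, and RPS26 was not among them. The breeds were deposited in separate tables, so breed and any handling that went with a table cannot be told apart.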

How the results depend on the processing

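Leaving out each pig in turn gave 21 to 55 called genes in Hampshire and 6 to 40 for the difference between breeds. For Hampshire against Pietrain at low loin weight it gave 0 to 10. Over all genes the same fits called 9.8 to 24.2%, 2.86 to 8.21% and 0.828 to 24.1%, in the same order. With no filter on low counts the difference was called in 24 genes, against 3.25% of all genes. The low loin weight comparison then called 4, against 10.1% of all genes, and DESeq2 called 13 there, against 16.2%. RPL8 in Pietrain went to -0.0018 without high pig 7 and to 0.46 without high pig 6. Without mitochondrially encoded genes in the total, the mean share of reads was 3.61 and 2.22% in Hampshire high and low pigs and 2.34 and 2.48% in Pietrain high and low pigs. The causes were not tested. For single named genes in Hampshire, 574 of the values under an alternative stayed on their side of the threshold in the same direction, 75 lost the call and 1 gained it. At low loin weight 81 stayed and 33 lost the call. At high loin weight all 114 stayed, for the difference 75 stayed and 1 lost the call, and in Pietrain 83 stayed and 1 changed sign. Over all 13 pigs, 77.7% of the genes tested had a span, under the minimum of 80% set for removing the trend on span. This was run after the data were seen and called 7 genes for the difference, 23 at low and 26 at high loin weight. Of all genes, 4.78, 23.1 and 48.4% were called in the same order. Levels per transcript length were not computed, since no lengths were given. No paired analysis was possible because the pig numbers only name animals and the groups compared share fewer than 2 numbers.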
